A study of Mus musculus with 13 samples.

Results

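The comparison set out here is between reprogramming mouse cells that received a stalling mutant of Tet2 (Tet2-E) and the same kind of cells that received the empty vector (pMXs), both at day 5. It holds 7 of the 13 libraries of the series: Tet2-E replicates 1, 2, 100 and 250 and pMXs replicates 2, 100 and 250, taken by their labels. All 7 are of primary mouse embryonic fibroblasts of embryonic day 12.5, strain background V6.5 129XBI/6, that are Tet2-/- and carry OKSM and rtTA, so that doxycycline switches on the reprogramming factors Pou5f1, Klf4, Sox2 and Myc. The Tet2-/- genotype is thus shared by the controls, and Tet2 is supplied by the retrovirus. Virus was made in PLAT-E packaging cells, and cells were infected in a pair of rounds and then seeded on feeder fibroblasts treated with mitomycin C. The medium held 1000 U/mL LIF, 1 µM PD0325901 (which inhibits MEK), 3 µM CHIR99021 (which inhibits GSK3) and 2 µg/mL doxycycline, under 5% oxygen. No sort and no removal of feeders or of uninfected cells is described, so each library is the RNA of a whole dish. The labels give the mutant's genotype as T2D-E and do not say which residue was changed. Tet2-WT (wild-type Tet2 in the same vector, 3 libraries) serves below as a second point of reference, and 3 Untreated libraries (the same line, not reprogrammed and, per the series design, with empty vector) enter the estimate of spread and are read beside the others for H19 alone.

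Tet enzymes oxidise methylcytosine in DNA to hydroxymethylcytosine, and then further to formylcytosine and carboxylcytosine. The last of these bases are cut out by the glycosylase Tdg and replaced with plain cytosine by base excision repair, whereas hydroxymethylcytosine is lost mainly as cells copy their DNA without it. A mutant that stalls at hydroxymethylcytosine therefore keeps the first oxidation and lacks most of the later ones. Set against an empty vector, it shows what goes with adding this mutant to cells that lack Tet2. The comparison does not set hydroxymethylcytosine apart from other effects of the added mutant, and RNA of Tet1 and Tet3 was also counted in these libraries. In reprogramming, fibroblasts first lose their mesenchymal gene expression and take on epithelial features, and only later switch on the pluripotency network.

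Few genes separated the mutant from the empty vector in the edgeR fit of all 13 libraries with no block. Of 14607 genes tested, 7 passed at an adjusted p under 0.05 (0.0479%): 3 rose with Tet2-E (0.0205%), namely Tet2 itself, Lgals3 and Chst3, and 4 fell (0.0274%), namely Cxcl12, Enpp1, Zfp618 and Zfp467. Apart from Tet2, the changes were of about 2-fold or less, with log2 fold changes of 0.79 and 0.53 for Lgals3 and Chst3 and of -0.99, -0.90, -0.75 and -0.74 for Cxcl12, Enpp1, Zfp618 and Zfp467. The count rested on single libraries. It was 50 without Tet2-E replicate 100, 1 without any one of Tet2-E replicate 1, pMXs replicate 100 and pMXs replicate 250, 2 without Tet2-E replicate 2, 5 without Tet2-E replicate 250 and 7 without pMXs replicate 2, of which 3 were among the first 7. A fit of these 7 libraries alone passed 0 genes with edgeR, with 1342 at an unadjusted p under 0.05, while DESeq2 on all 13 libraries passed 141 (0.965%).

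The replicate numbers matter for this count. Libraries with the same number deviated together, and so did libraries of other numbers in the same set (1 and 2, or 100 and 250). With the replicate number as a block, 93 genes passed (0.637%), 39 higher (0.267%) and 54 lower (0.37%), and all of the first 7 were among them. When the block was fitted to the 10 day 5 libraries only, 332 genes passed (2.36%), 123 higher (0.873%) and 209 lower (1.48%), and 92 of the 93 were among them. The genes that passed moved by a median of 0.676 on the log2 scale with the block over 13 libraries and 0.442 over the day 5 libraries, and 15 and 25 of them moved by at least 2-fold. A block for the set of numbers (1 and 2 against 100 and 250) in place of the number passed 415 (2.95%). The plot of genes passing under each fit shows how far the count depends on the design. Below, "without the block" stands for the edgeR fit of all 13 libraries with no block, "the replicate block" for that fit with the block added, and a gene that passed in a blocked fit is named with that fit. DESeq2 without a block and the set block passed some of the same genes, and this is said where it bears on a call.

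**Figure D1:**
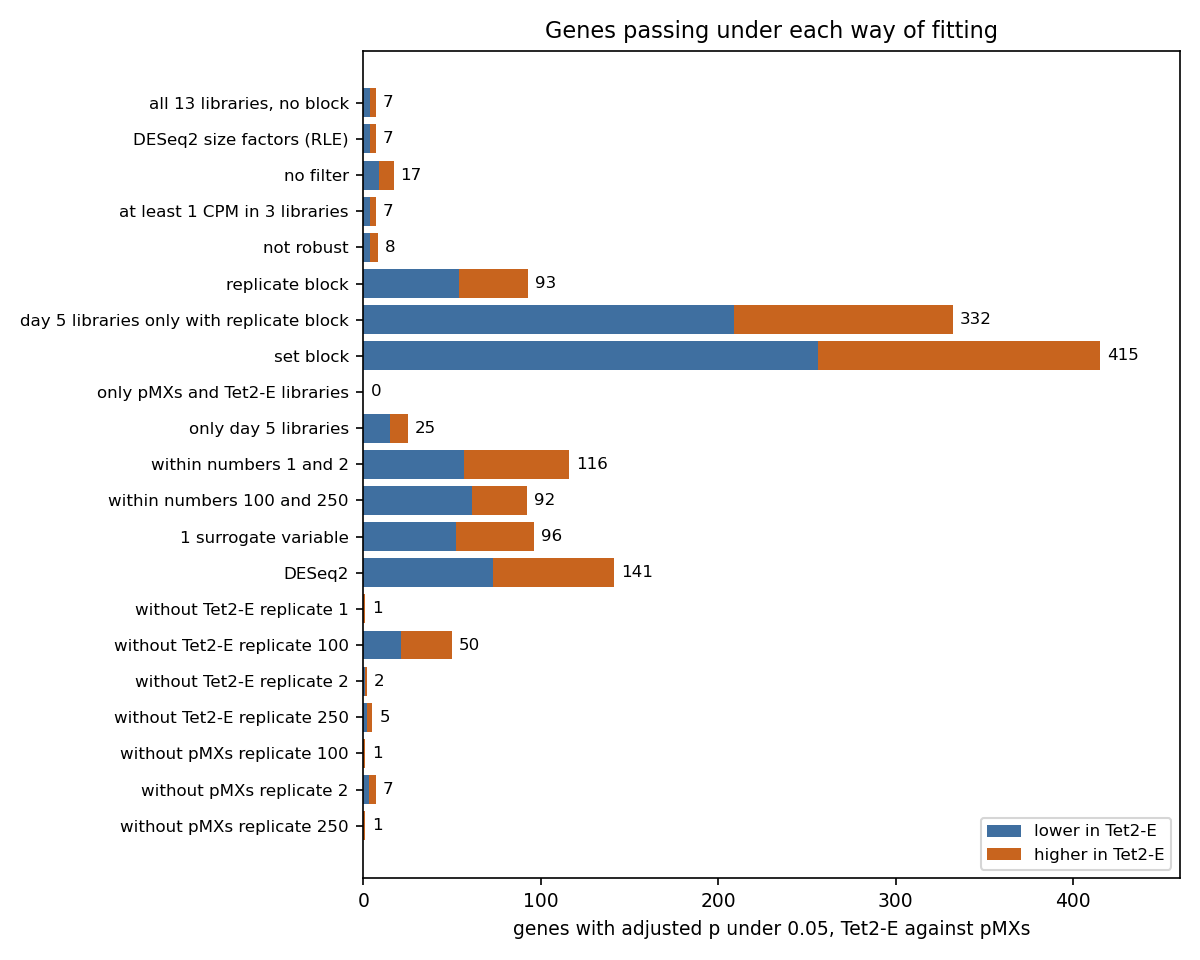
Number of genes (horizontal axis) with an adjusted p under 0.05 between Tet2-E and pMXs under each way of fitting (vertical axis), split into lower (blue) and higher (orange) in Tet2-E; the set block sorts libraries by replicate numbers 1 and 2 against 100 and 250. The count was 7 without a block, 93 with the replicate block and 415 with the set block.

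In the fit without the block, the size of the difference was bounded for most genes. The median absolute log2 fold change over all genes was 0.101, and 90 percent of genes lay within 0.384 of no difference. For 12836 genes (87.9%) the 95% interval of the difference lay within 2-fold either way, and for 10677 (73.1%) within 1.5-fold. Among the 10958 genes above 5 CPM (counts scaled to a common library total), 98.2% had an interval within 2-fold. For comparison, Tet2-WT set against the same 3 pMXs libraries passed 1830 genes (12.5%), and the direct test of Tet2-E against Tet2-WT passed 675 (4.62%), of which 320 were higher (2.19%) and 355 lower (2.43%) in the mutant. As a plainer count, the libraries of Tet2-E and pMXs did not overlap for 1483 genes (10.2%), 825 with Tet2-E above (5.65%) and 658 with it below (4.5%).

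**Figure D2:**
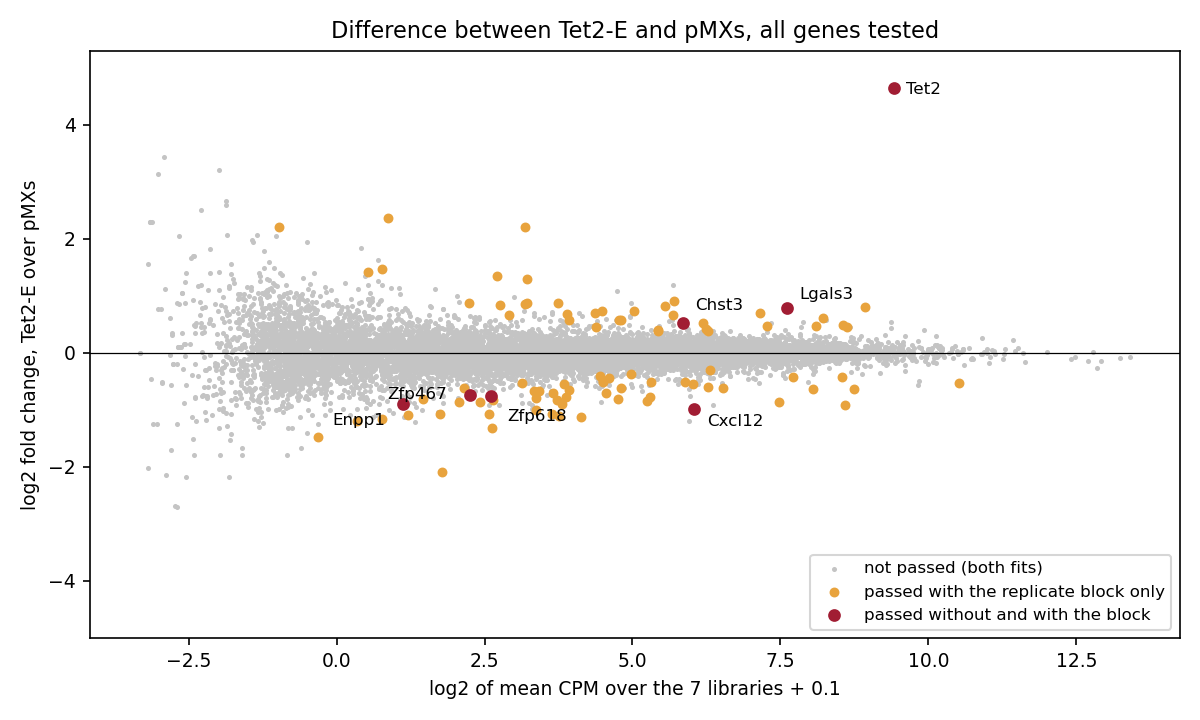
Each point is 1 of 14607 genes, placed by the log2 of its mean CPM over the 7 libraries plus 0.1 (horizontal) and its log2 fold change of Tet2-E over pMXs (vertical); red genes passed with and without the replicate block, and orange genes with the block only. Most genes lie close to 0 at high levels, and Tet2 stands alone at 4.65.

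Tet2 was the check on the labels of Tet2-E against pMXs. Its RNA stood at 58.8, 39.1 and 41.1 CPM in pMXs replicates 2, 100 and 250 and at 1356, 1403, 581 and 1299 CPM in Tet2-E replicates 1, 2, 100 and 250. All 4 Tet2-E libraries lay far above all 3 pMXs libraries, and Tet2-E replicate 100 had less than any other Tet2-E library. Tet2 rose by 4.65 ± 0.30 on the log2 scale (± is the standard error here and below; adjusted p = 3.89e-05). Its level with Tet2-WT was 1243, 1176 and 1233 CPM in replicates 1, 2 and 250, and mutant and wild type differed by -0.07 ± 0.24 (95% interval -0.60 to 0.46). The counts do not tell vector Tet2 from what the disrupted gene or the feeders still make, nor mutant Tet2 from wild type. They say nothing of protein or of enzyme activity.

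Promoter sequence is shown for 4 of the genes that passed, since the substrate of Tet enzymes is methylcytosine in CG pairs. The stretches are RefSeq promoters on GRCm38.p6, 250 bases before to 50 after the start, matched by symbol. All 7 genes that passed had an entry. Lower case is the sequence 5′ to 3′ on the gene's strand and capitals mark CG. Cxcl12 lies at chr6:117168285-117168584 (plus strand), Lgals3 at chr14:47373610-47373909 (plus), Chst3 at chr10:60219211-60219510 (minus) and Zfp618 at chr4:62965317-62965616 (plus).
Cxcl12: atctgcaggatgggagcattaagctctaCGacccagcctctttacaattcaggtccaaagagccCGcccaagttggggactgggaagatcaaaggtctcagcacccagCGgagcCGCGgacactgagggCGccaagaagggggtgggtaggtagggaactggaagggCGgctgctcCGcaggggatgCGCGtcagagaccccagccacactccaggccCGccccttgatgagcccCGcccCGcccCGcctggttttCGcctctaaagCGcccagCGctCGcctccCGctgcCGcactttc
Lgals3: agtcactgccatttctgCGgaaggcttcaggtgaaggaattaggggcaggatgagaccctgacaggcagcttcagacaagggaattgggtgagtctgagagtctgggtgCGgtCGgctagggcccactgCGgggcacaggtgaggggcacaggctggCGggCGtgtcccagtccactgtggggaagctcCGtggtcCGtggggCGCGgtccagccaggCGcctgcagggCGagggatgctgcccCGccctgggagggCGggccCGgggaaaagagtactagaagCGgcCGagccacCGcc
Chst3: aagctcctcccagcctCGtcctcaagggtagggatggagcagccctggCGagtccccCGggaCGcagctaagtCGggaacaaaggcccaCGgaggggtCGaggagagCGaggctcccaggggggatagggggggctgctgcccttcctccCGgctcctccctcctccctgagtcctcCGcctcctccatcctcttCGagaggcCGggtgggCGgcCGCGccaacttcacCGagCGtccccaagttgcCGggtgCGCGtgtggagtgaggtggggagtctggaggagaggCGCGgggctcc
Zfp618: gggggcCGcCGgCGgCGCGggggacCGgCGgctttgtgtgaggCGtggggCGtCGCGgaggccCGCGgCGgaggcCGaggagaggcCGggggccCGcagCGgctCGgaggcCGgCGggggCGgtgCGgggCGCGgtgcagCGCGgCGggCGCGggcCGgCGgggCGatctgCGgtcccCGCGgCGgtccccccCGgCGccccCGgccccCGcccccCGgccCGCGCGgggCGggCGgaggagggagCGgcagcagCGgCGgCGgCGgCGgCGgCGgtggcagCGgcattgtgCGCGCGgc
The letters CG occurred 20 times in the Cxcl12 promoter, 18 in Lgals3, 22 in Chst3 and 59 in Zfp618. Enpp1 and Zfp467 held 22 and 18. The median over the promoters of genes tested was 20, with quartiles of 10 and 28, so of these 6 all but Zfp618 lay within the quartiles. The Tet2 promoter held 57. A count as high as that of Zfp618 was found in 0.17% of promoters of tested genes and 0.1% of all promoters in the table, whereas 50.4% of promoters of tested genes held as many CG as Cxcl12. No methylation was measured in the data used here, and the counts of CG are a description of sequence only.

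Lgals3 and Chst3 were the genes besides Tet2 that rose. Lgals3 encodes galectin-3, a secreted and cytosolic lectin that binds beta-galactosides. It stood at 149, 146 and 119 CPM in pMXs replicates 2, 100 and 250 and at 267, 266, 196 and 229 CPM in Tet2-E replicates 1, 2, 100 and 250. The groups did not overlap, and Tet2-E replicate 100 came nearest to the empty vector. Lgals3 rose by 0.79 ± 0.11 (adjusted p = 0.0229). With Tet2-WT it reached 403, 378 and 329 CPM, and Tet2-E lay below Tet2-WT by a log2 difference of -0.63 ± 0.11 (adjusted p = 0.00338). Of the 8 galectins tested, Lgals3 alone passed, and the median of the list was 0.0775.

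Chst3 encodes a sulfotransferase that adds sulfate to the N-acetylgalactosamine of chondroitin sulfate, a chain carried by matrix proteoglycans. It was at 52.6, 42.9 and 42.7 CPM with pMXs and at 72.9, 68.0, 64.4 and 60.5 CPM with Tet2-E, in the order of replicates used above. The groups did not overlap, and the highest pMXs library was the one of number 2. Chst3 rose by 0.53 ± 0.09 (adjusted p = 0.0401). Its level with Tet2-WT was more than 2 times that with the mutant, at 151, 148 and 138 CPM, and the mutant lay below it by -1.13 ± 0.08 (adjusted p = 2.4e-06). The list of chondroitin sulfate synthesis genes had 20 tested members, of which Chst3 rose and none fell without the block. With the block over day 5 libraries Xylt2, a xylosyltransferase that starts the chain, fell as well (log2 fold change -0.30).

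Cxcl12 led the genes that fell. It encodes a chemokine that fibroblasts and other stromal cells secrete and that acts through the receptor Cxcr4. It stood at 96.1, 90.7 and 89.4 CPM in the pMXs libraries and at 37.4, 55.3, 50.8 and 41.9 CPM in Tet2-E replicates 1, 2, 100 and 250. Every Tet2-E library was below every pMXs library, and the pMXs libraries were close together (SD 3.57). Cxcl12 fell by 0.99 ± 0.14 on the log2 scale (adjusted p = 0.0229). Tet2-WT had 14.5, 16.1 and 21.5 CPM, and the mutant lay above it by 1.41 ± 0.15 (adjusted p = 8.56e-05). The chemokine and receptor list had 17 members tested, and Cxcl12 alone passed, also with the replicate block.

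Enpp1, a cell surface enzyme that splits extracellular ATP and yields pyrophosphate, was a gene of low level here. Its counts were 42, 75 and 44 in pMXs replicates 2, 100 and 250 and 26, 20, 39 and 49 in Tet2-E replicates 1, 2, 100 and 250. On the CPM scale the pMXs libraries lay at 2.66, 2.87 and 3.01 and the Tet2-E libraries at 1.36, 1.38, 1.46 and 1.80, without overlap. Enpp1 fell by 0.90 ± 0.14 (adjusted p = 0.0356), and Tet2-WT was lower still, with the mutant above it by 0.96 ± 0.17 (adjusted p = 0.00416). Of the 24 genes for extracellular nucleotides and phosphate that were tested, Enpp1 alone passed without the block in edgeR, and Entpd2, which also degrades extracellular nucleotides, passed with the block (-1.18). Entpd2 also passed with DESeq2 and no block (adjusted p = 0.0313). Entpd2 was at 1.52, 1.57 and 2.19 CPM with pMXs and 0.524, 0.415, 0.896 and 1.03 CPM with Tet2-E.

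Zfp618 and Zfp467, both zinc finger proteins, were low and fell to levels near those with the wild type. Zfp618 stood at 8.05, 7.16 and 8.28 CPM with pMXs and at 4.14, 4.64, 5.38 and 4.31 CPM with Tet2-E. It fell by 0.75 ± 0.12 (adjusted p = 0.0356). Tet2-WT libraries held 4.74, 4.14 and 4.63 CPM, inside the range of the mutant, and the difference of mutant from wild type was 0.04 ± 0.12 (95% interval -0.21 to 0.30). Zfp467 stood at 5.83, 6.59 and 5.82 CPM with pMXs and at 4.09, 3.18, 3.77 and 3.5 CPM with Tet2-E, also without overlap, and fell by 0.74 ± 0.12 (adjusted p = 0.0356). Its difference of mutant from wild type was 0.32 ± 0.13 (95% interval 0.05 to 0.59, adjusted p = 0.208). Thus among the 6 genes besides Tet2, the direct test separated mutant and wild type for Cxcl12, Lgals3, Enpp1 and Chst3 and did not pass for the zinc finger genes. The intervals leave room for differences of up to 0.30 and 0.59 on the log2 scale.

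**Figure D3:**
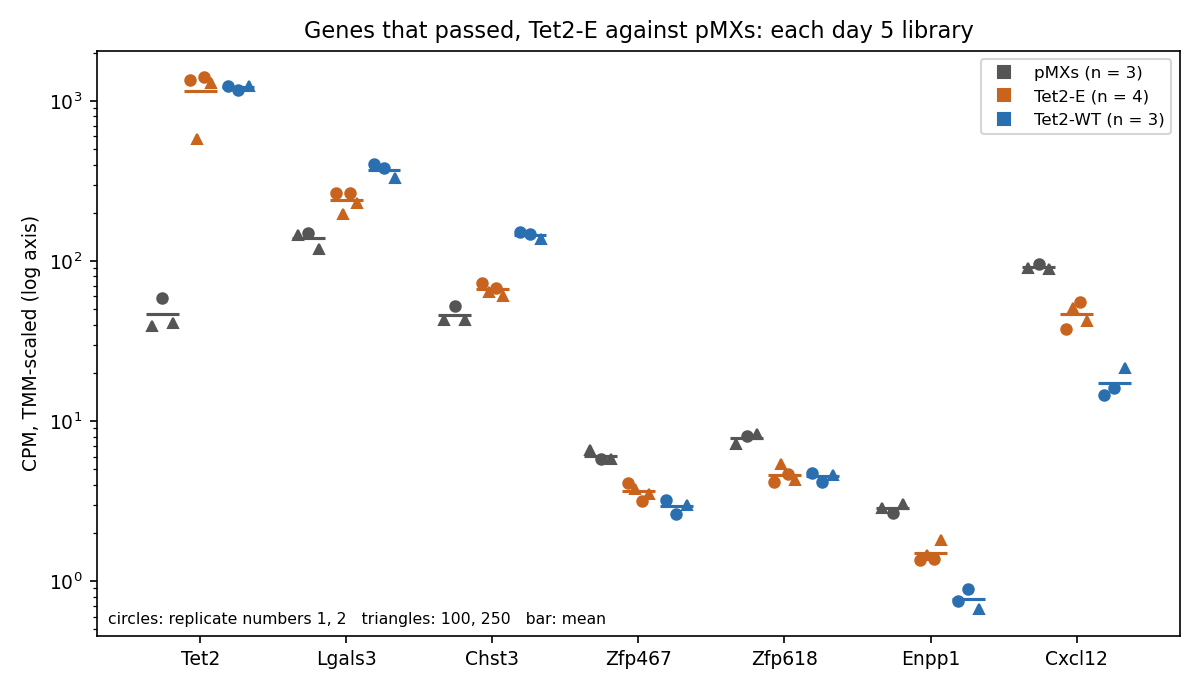
Level in CPM (vertical, log axis) of the 7 genes that passed (horizontal) in each day 5 library, with pMXs in grey, Tet2-E in orange and Tet2-WT in blue; circles are replicate numbers 1 and 2, triangles 100 and 250, bars the group means. Tet2-E and pMXs libraries do not overlap for any of the 7, and Tet2 in Tet2-E replicate 100 sits at 581 CPM below the rest of its group.

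The next genes by p, 8 each way, did not pass in edgeR without the block. All 16 passed with DESeq2, likewise with no block, at adjusted p of 1.92e-05 to 0.00701. The 8 higher ones with at least 5 CPM and no overlap of libraries were Ces2g, Cd80, Ly6a, Glipr1, Slc13a5, Nsf, Osbp2 and Lpin1, with log2 fold changes of 0.32 to 2.22 and adjusted p of 0.0606 to 0.0857 in edgeR. Glipr1, which encodes a secreted protein of the cysteine-rich CAP family, had the widest difference of these. It was at 4.25, 2.45 and 1.98 CPM with pMXs and at 18.1, 18.8, 6.57 and 10.9 CPM with Tet2-E, a difference of 2.22 ± 0.38 (adjusted p = 0.0608). With the block Glipr1 rose (2.03, adjusted p = 0.002). Replicates 1 and 2 were the highest of the mutant and replicate 100 the lowest, and all were below the 68.7 to 80.3 CPM of Tet2-WT, from which the mutant differed by -2.51 (adjusted p = 0.000339).

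Slc13a5, a citrate transporter of the plasma membrane, showed another relation to the wild type. Its libraries held 6.21, 4.52 and 4.24 CPM with pMXs, 15.6, 13.8, 8.14 and 11.8 CPM with Tet2-E and 12.3, 11.2 and 12.5 CPM with Tet2-WT. The difference from pMXs was 1.3 ± 0.24 (adjusted p = 0.0611), and with the block it rose (1.17, adjusted p = 0.0172). Mutant and wild type differed by 0.03 with an adjusted p of 0.986. Cd80, a costimulatory ligand for T cells, was at 16.1, 17.3 and 15.0 CPM with pMXs and 28.4, 31.5, 21.5 and 26.5 CPM with Tet2-E, and Ly6a, which encodes the surface antigen Sca-1, at 309, 285 and 329 and at 433, 467, 369 and 454 CPM. Both passed with the block (0.73 and 0.47, adjusted p = 0.0302 and 0.0215), as did Ces2g (0.54), a carboxylesterase, and Osbp2 (0.83), an oxysterol binding protein. Nsf, the ATPase of membrane fusion, differed by 0.32 ± 0.06 without the block, and Lpin1, a phosphatidate phosphatase, by 0.36 ± 0.07. Both passed with the block over day 5 libraries (0.30 and 0.32) and not with that over 13.

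The 8 lower ones were Cacna1h, Col3a1, Ttyh1, Il6st, Col11a1, Acvrl1, Fzd4 and Fzd2, with log2 fold changes of -0.87 to -0.42 and adjusted p of 0.0606 to 0.0942 in edgeR. Several encode surface receptors: Il6st is gp130, the signalling chain that LIF acts through, Acvrl1 is a receptor for BMP ligands, and Fzd4 and Fzd2 are Wnt receptors. Il6st stood at 227, 234 and 273 CPM with pMXs and 172, 172, 193 and 195 CPM with Tet2-E. It fell with the replicate block (-0.40, adjusted p = 0.0205), as did Fzd2 (-0.53), Cacna1h (-0.85), a calcium channel subunit, and Ttyh1 (-0.51), a membrane protein. Acvrl1 was at 8.81, 7.28 and 7.39 CPM with pMXs and 4.61, 4.98, 5.45 and 5.15 CPM with Tet2-E, and Fzd4 at 5.33, 5.02 and 5.68 and at 3.09, 2.98, 3.29 and 2.83 CPM. Both fell with the block over day 5 libraries (-0.57 and -0.80, adjusted p = 0.0314 and 0.0105) and did not pass with that over 13.

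In 13 of these 16 genes, Tet2-E replicate 100 was the mutant library nearest to the pMXs mean, and replicate 250 was in the other 3. Over all genes tested, replicate 100 was nearest for 34.4% and replicate 250 for 31.5%. The 16 genes were chosen from these same values as genes that did not pass, so their count cannot be read against that share. Among the 6 genes besides Tet2 that passed, replicates 100 and 250 were nearest in 2 each. Most of the pMXs mean comes from pMXs replicates 100 and 250. Tet2 RNA was lowest in replicate 100, and the part of that in these values was not tested.

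Collagens and matrix genes were the lists with the most members that fell with the block over day 5 libraries. Fibroblasts make and secrete collagens, and their RNA falls as reprogramming moves cells away from that identity. None of the 23 collagen chains passed without the block. With DESeq2 and no block 4 fell, where 73 of 14607 genes fell. In edgeR over the day 5 libraries with no block 3 fell, where 15 of 14084 genes did. Without the block, 1 chain was higher and 10 were lower at an unadjusted p under 0.05, where 4.38% and 4.95% of all genes were. The median of the list was -0.249, against -6.47e-05 over all genes tested, and 5 of 23 were above 0. The pMXs and Tet2-E libraries did not overlap for 1 chain with Tet2-E above and 9 with it below, against 5.65% and 4.5% of all genes. With the replicate block 2 chains fell and none rose, where 0.37% of all genes fell. With the block over day 5 libraries 7 fell and none rose, where 1.48% of all genes fell. Collagen counts summed to 23000 to 25500 CPM in pMXs libraries, 20400 to 21600 in Tet2-E libraries and 15800 to 17700 in Tet2-WT libraries, so the summed level of the mutant lay between those of the others.

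Of the list, Col3a1 and Col11a1 were the 2 that fell with both forms of the block. The list does not hold every collagen: Col23a1 and Col4a6, which it leaves out and which were named after their values were seen, also fell with both (-0.98 and -0.56 with the replicate block, adjusted p = 0.00964 and 0.0205), and so did Col2a1 over day 5 libraries (-0.35). Col3a1, a fibrillar collagen of soft connective tissue, was at 1616, 1847 and 1887 CPM in pMXs and 1151, 1227, 1276 and 1294 CPM in Tet2-E replicates 1, 2, 100 and 250. The groups did not overlap, and the log2 fold change was -0.53 ± 0.10 (adjusted p = 0.0608 without the block, 0.0239 with it). Col11a1, a minor fibrillar collagen that limits fibril width, was at 493, 494 and 625 CPM and at 301, 342, 395 and 343 CPM, a difference of -0.64 ± 0.12 (adjusted p = 0.0857 and 0.0205). For both, the mutant lay above Tet2-WT (0.60 and 1.01, adjusted p = 0.0021 and 0.000339). The other members of the list that fell over day 5 libraries were Col15a1, Col14a1, Col1a1, Col12a1 and Col5a1, which apart from Col5a1 were named after their values were seen. Col1a1, the main chain of type I collagen, was at 7716, 7498 and 9112 CPM with pMXs and at 6908, 6606, 6446 and 7145 CPM with Tet2-E, whereas its partner Col1a2 overlapped, at 5752 to 6116 and at 5023 to 5974 CPM.

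The matrix glycoproteins and remodelling genes were 27 in number. None passed without the block, 1 was higher and 10 were lower at an unadjusted p under 0.05 (4.38% and 4.95% of all genes), and the median was -0.118. With the replicate block 2 fell, where 0.37% of all genes fell: Mfap2, a microfibril protein, and Mmp2, a gelatinase. Mfap2 was at 5.64, 6.86 and 9.17 CPM with pMXs and at 3.41, 2.77, 4.37 and 4.75 CPM with Tet2-E, and fell by 0.89 (adjusted p = 0.0101). With DESeq2 and no block 3 of the list fell, Mfap2 among them (adjusted p = 0.00161), where 73 of 14607 genes fell. Mmp2 was at 361, 450 and 493 CPM and at 284, 279, 359 and 369 CPM, where Tet2-E replicate 250 overlapped pMXs replicate 2 and no library overlapped within the sets 1 and 2 or 100 and 250. With the block over day 5 libraries 7 fell, among them Bgn, Eln and Tnc, and 1 rose, Mfap5, where 1.48% of all genes fell and 0.873% rose. Bgn encodes the proteoglycan biglycan. Its replicates of numbers 1 and 2 held 858 CPM with pMXs against 621 and 641 with Tet2-E. Those of 100 and 250 held 1177 and 1324 against 867 and 885. The lowest pMXs library thus lay below the highest Tet2-E library, although Tet2-E was lower within each set. Bgn differed by -0.57 without the block (adjusted p = 0.254) and fell by 0.48 with it over day 5 libraries (adjusted p = 0.00063). These fits differ in the Untreated libraries as well as in the block. With the replicate block over 13 libraries Bgn did not pass.

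**Figure D4:**
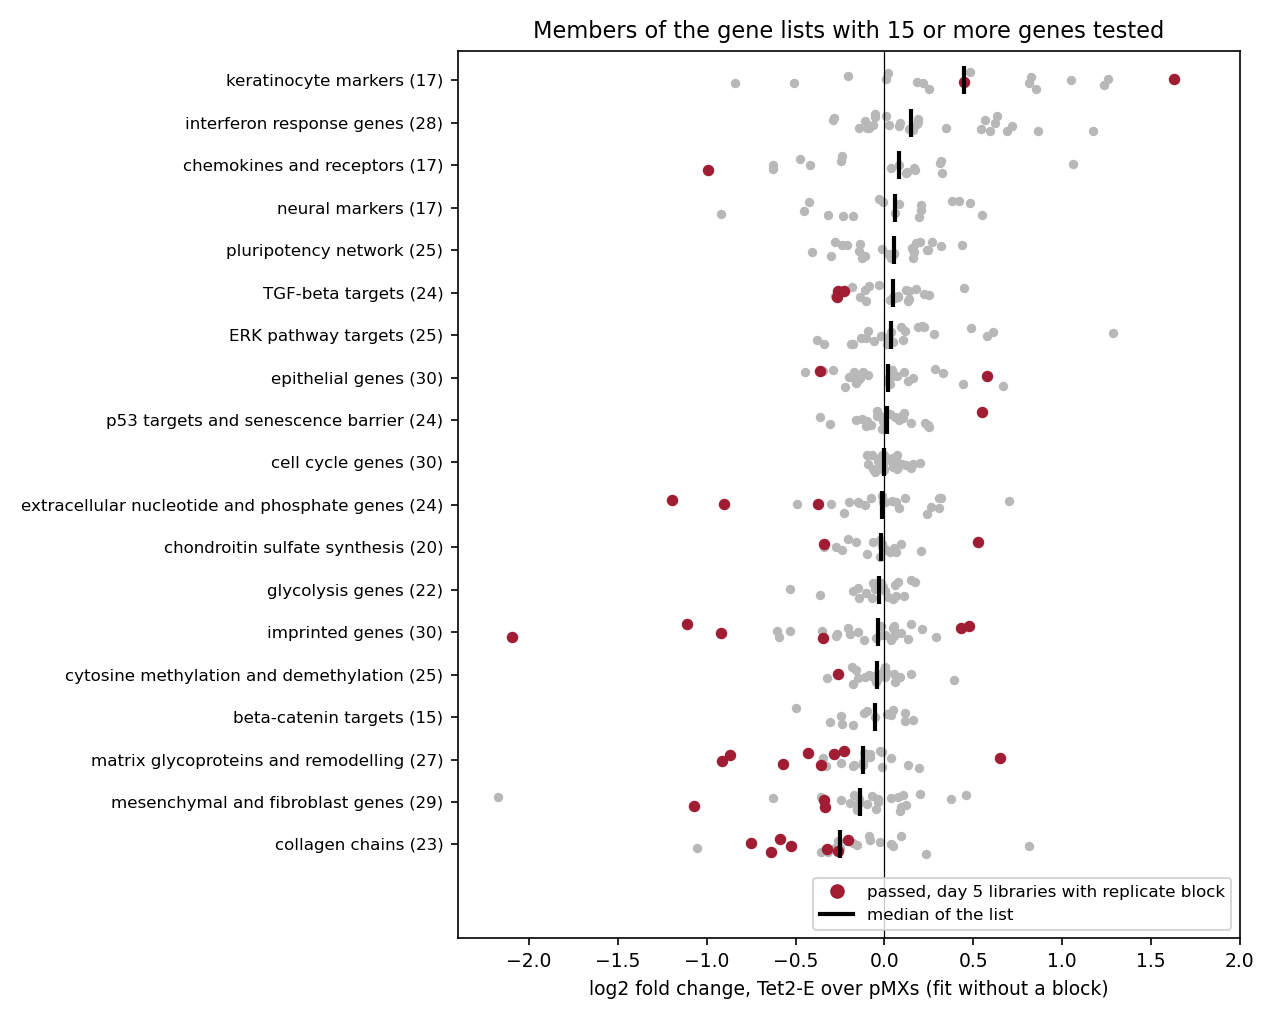
Log2 fold change of Tet2-E over pMXs from the fit without a block (horizontal) for the tested members of each gene list with 15 or more of them (vertical, number tested in parentheses), with red points for members that passed with the replicate block over day 5 libraries and black bars for list medians; Tet2 is off the axis and not drawn. Collagen chains have a median of -0.249 and 7 red points to the left of 0.

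Of 29 mesenchymal and fibroblast genes tested none passed without the block, with 2 higher and 4 lower at an unadjusted p under 0.05 (4.38% and 4.95% of all genes) and a median of -0.140. With the replicate block Lum fell (-0.92), where 0.37% of all genes fell. With the block over day 5 libraries Pdgfrb and Loxl1 fell as well, where 1.48% of all genes did. Lum, which encodes the keratan sulfate proteoglycan lumican, was at 5.33, 9.62 and 10.4 CPM with pMXs and at 2.31, 2.98, 5.15 and 5.12 CPM with Tet2-E. Twist2, a transcription factor of mesenchymal cells, lay the other way, at 4.75, 6.28 and 4.72 CPM with pMXs against 7.39, 8.30, 6.79 and 7.11 CPM, and did not pass (0.46 ± 0.12, adjusted p = 0.208). Summed fibroblast markers were 17000 to 18400 CPM with pMXs and 16000 to 17600 CPM with Tet2-E, so the dishes of both groups still held abundant fibroblast RNA, feeders included. In RNA of whole dishes, fewer fibroblasts and less RNA of these genes per fibroblast cannot be told apart.

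No member of the epithelial or pluripotency lists passed without the block. Of 30 epithelial genes tested the median was 0.0219. Cdh1, which encodes E-cadherin, was at 355, 273 and 286 CPM with pMXs and at 260, 227, 251 and 210 CPM with Tet2-E. It differed by -0.36 ± 0.15 (adjusted p = 0.452) and fell over day 5 libraries with the block (-0.42, adjusted p = 0.0237), while Dsp, which encodes desmoplakin, rose there (0.39). Of 25 pluripotency network genes 0 passed with edgeR without the block and 0 with either form of it. At an unadjusted p under 0.05, 1 was higher and 1 lower (4.38% and 4.95% of all genes), and the median was 0.0521. Nanog was at 15.4, 14.8 and 10.5 CPM with pMXs and at 11.4, 12.8, 7.91 and 13.1 CPM with Tet2-E, ranges that overlap. Esrrb was near 1 CPM in every one of these libraries.

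The reprogramming factors themselves overlapped between the groups. Pou5f1 was at 224, 205 and 205 CPM with pMXs and at 251, 183, 240 and 223 CPM with Tet2-E, a difference of 0.09 with a 95% interval of -0.20 to 0.38. Klf4 was at 438, 425 and 438 CPM and at 465, 354, 483 and 444 CPM, a difference of 0.01 (interval -0.17 to 0.20). Sox2 and Myc differed by 0.03 (-0.27 to 0.34) and 0.01 (-0.31 to 0.34). The sign of the differences for all 4 factors turned under some of the other fits. Tet2-E replicate 2 was the lowest mutant library for each factor named. These counts do not tell the doxycycline-driven copies from the resident genes.

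Among the genes that write, read or remove cytosine methylation, Tet2 alone passed without the block of 25 tested. Tet1 was at 35.4, 17.2 and 20.6 CPM with pMXs and at 25.1, 22.7, 16.6 and 13.8 CPM with Tet2-E (-0.32, interval -0.999 to 0.35), with a sign that turned without pMXs replicate 2. It was lower with Tet2-E within numbers 1 and 2 (-0.57) and within 100 and 250 (-0.30), and fell with the set block (-0.43, adjusted p = 0.0291). Tet3 was at 125, 98.8 and 110 CPM and at 107, 92.2, 115 and 86.8 CPM (-0.15, interval -0.43 to 0.13). Tdg was counted at 12 to 14 reads in pMXs libraries and 9 to 24 in Tet2-E libraries, too few to show less than a wide difference (interval -0.68 to 0.55). Dnmt3a, a methyltransferase that sets new methylation, was at 98.9, 79.0 and 87.1 CPM and at 78.4, 75.8, 74.0 and 66.0 CPM. It differed by -0.26 (adjusted p = 0.42) and fell over day 5 libraries with the block (-0.30, adjusted p = 0.0323).

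Imprinted genes, whose expression depends on methylation set in the germ line, held 3 members that fell with the replicate block. Of 30 tested none passed without it in edgeR and the median was -0.0344. The 3 that fell were H19, Igf2 and Cdkn1c, and none rose, where 0.37% of all genes fell and 0.267% rose. H19, a long noncoding RNA, was at 2.03, 9.35 and 6.36 CPM with pMXs and at 1.68, 0.623, 1.94 and 1.25 CPM with Tet2-E, so pMXs replicate 2 lay just above the highest mutant library. It differed by -2.10 ± 0.46 without the block (adjusted p = 0.132) and fell by 2.19 with it (adjusted p = 0.00494). H19 also passed with DESeq2 and no block (adjusted p = 0.0257). The size moved with the set of numbers, from -0.75 ± 0.52 within 1 and 2 to -2.33 ± 0.29 within 100 and 250 (edgeR p of the difference 0.0209, adjusted p = 0.99). Igf2, a growth factor gene beside H19, was at 313, 607 and 668 CPM and at 191, 240, 365 and 322 CPM, and fell by 0.77 (adjusted p = 0.00673). Cdkn1c, a brake on the cell cycle, was at 9.13, 23.7 and 26.1 CPM and at 4.61, 6.92, 10.2 and 13.9 CPM, and fell by 1.00 (adjusted p = 0.0319). In all 3 genes the pMXs library of number 2 was the lowest of its group. Untreated fibroblasts held far more of H19 than any day 5 library, with counts of 1035 to 2070 against 9 to 244 in the 7 libraries. Over day 5 libraries with the block Peg3 fell too, and Peg10 and Ddc rose. That made 4 lower and 2 higher of 29 tested, where 1.48% of all genes fell and 0.873% rose.

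Markers of other cell types were read because the dishes were not sorted. Of 17 keratinocyte markers none passed without the block, 5 were higher and 0 lower at an unadjusted p under 0.05 (4.38% and 4.95% of all genes) and the median was 0.450. With the block Itgb4, an integrin of hemidesmosomes, rose (0.34, adjusted p = 0.033), from 382, 298 and 304 CPM to 547, 473, 398 and 374 CPM, with the pMXs library of number 2 above Tet2-E replicate 250. Krt6a, a keratin of activated epidermis, was at 0.697, 0.575 and 0.753 CPM and at 2.99, 3.32, 1.16 and 1.18 CPM, and rose over day 5 libraries with the block (1.27, adjusted p = 0.0386), with differences of 2.15 within numbers 1 and 2 and 0.86 within 100 and 250. The defining keratins stayed near the floor, with Krt5 at 0.651 to 0.821 CPM with pMXs and 0.411 to 1.11 CPM with Tet2-E. The list summed to 676 to 831 CPM with pMXs and 793 to 1090 CPM with Tet2-E, ranges that overlap. Of 14 macrophage and blood cell markers 8 were tested, none passed without the block and the median was 0.369. Itgam, an integrin chain of myeloid cells, was at 1.20, 0.690 and 0.479 CPM and at 2.41, 2.77, 1.68 and 2.02 CPM, and rose with the block (1.39, adjusted p = 0.0287). Itgam rose with DESeq2 and no block too (adjusted p = 0.00118). The defining markers Ptprc, Adgre1 and Tyrobp had at most 2, 1 and 0 counts in any of these 7 libraries. Blood markers summed to 83.0 to 96.6 CPM with pMXs, 95.2 to 129 CPM with Tet2-E and 215 to 312 CPM with Tet2-WT, most of it Laptm5.

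Other lists had few members that passed, or none. Interferon response genes had a median of 0.150 with 0 of 28 passing with edgeR, with or without either block, and 3 higher and 1 lower at an unadjusted p under 0.05 (4.38% and 4.95% of all genes). Cell cycle genes had a median of -0.00194 and a range of -0.101 to 0.198 over 30 genes, of which Rrm1, a subunit of ribonucleotide reductase, had the smallest p (0.15 ± 0.07, adjusted p = 0.511). Glycolysis genes had a median of -0.0316 with 0 of 22 passing with edgeR, also at an unadjusted p under 0.05. Of 24 p53 targets Gdf15, a stress-induced cytokine, differed by 0.55 ± 0.16 (adjusted p = 0.244) and rose over day 5 libraries with the block (0.48). Of 24 TGF-beta targets Tgfb3 differed by -0.27 ± 0.07 (adjusted p = 0.217) and fell over day 5 libraries with the block (-0.26, adjusted p = 0.0327), 1 of 3 there with Col1a1 and Tgfbi, where 1.48% of all genes fell. Of 2 erythroid genes tested Hbb-y, an embryonic globin, stood at 0.697, 0.690 and 0.616 CPM and at 1.83, 2.21, 1.23 and 1.73 CPM and rose over day 5 libraries with the block (1.24, adjusted p = 0.019). Hbb-y passed with DESeq2 and no block as well (adjusted p = 0.0175). Endothelial (10 tested, median -0.325), skeletal muscle (9, 0.207), neural (17, 0.0596), germline (7, 0.0775), extraembryonic and germ layer (9, 0.0387), beta-catenin (15, -0.0524) and ERK (25, 0.0386) lists had no member that passed without the block or with the replicate block. The endothelial median was lower than that of the collagen chains, with 2 of 10 above 0. At an unadjusted p under 0.05, 1 endothelial gene was higher and 1 lower (4.38% and 4.95% of all genes).

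The genes that marked wild-type Tet2 most firmly are set beside the mutant for scale. They were chosen on Tet2-WT against the same pMXs libraries, so the values are a description. The 6 highest by p were P2rx7, Chst3, Mst1, Avil, Adh7 and Srd5a1, with log2 fold changes of 1.18 to 2.29 with the wild type (median 1.85) and 0.26 to 0.53 with the mutant (median 0.36). P2rx7, an ATP-gated ion channel, was at 16.3, 18.0 and 21.2 CPM with pMXs, 23.3, 21.6, 21.5 and 22.2 CPM with Tet2-E and 86.4, 78.8 and 73.1 CPM with Tet2-WT. Avil, an actin-regulating protein of the villin family, was at 60.7, 61.5 and 61.1, then 80.8, 65.3, 75.1 and 93.0, then 262, 246 and 241 CPM. The mutant libraries lay just above the empty vector and far below the wild type for both.

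The 6 lowest were Cxcl12, Col11a1, Cpxm1, Tnc, Col5a1 and Cdh3, with log2 fold changes of -2.41 to -1.07 with the wild type (median -1.36) and -0.99 to -0.21 with the mutant (median -0.35). Tnc, which encodes the matrix protein tenascin-C, was at 645, 650 and 701 CPM with pMXs, 524, 445, 610 and 502 CPM with Tet2-E and 302, 280 and 308 CPM with Tet2-WT. Cdh3, which encodes P-cadherin, was at 11.4, 11.3 and 10.7, then 9.12, 10.0, 9.56 and 8.98, then 4.22, 4.66 and 5.02 CPM. Of these 12 genes, Chst3 and Cxcl12 passed between mutant and empty vector without the block. Col11a1, Srd5a1, Adh7, Tnc and Cpxm1 passed as well with DESeq2 and no block (adjusted p = 0.00117 to 0.0492).

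**Figure D5:**
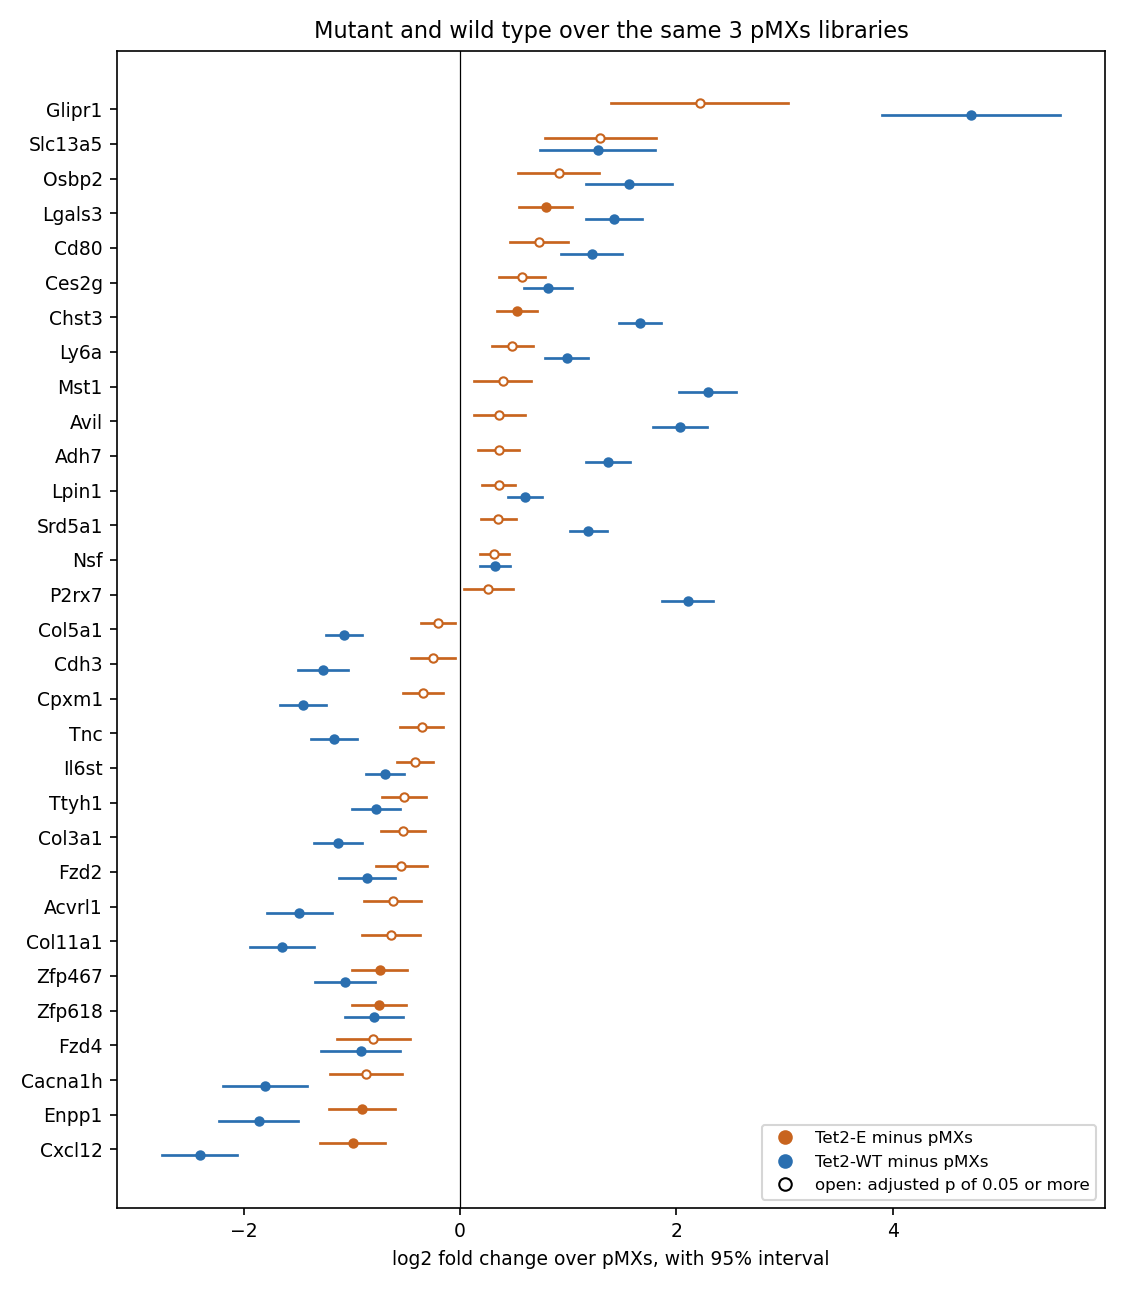
Log2 fold change over pMXs with its 95% interval (horizontal) of Tet2-E (orange) and Tet2-WT (blue) for the genes named above (vertical), with filled points for an adjusted p under 0.05; both comparisons use the same 3 pMXs libraries. Zfp618, Slc13a5 and Nsf have overlapping intervals for mutant and wild type, whereas P2rx7, Mst1 and Avil do not.

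Facts on the libraries bear on all of this. Total counts ran from 14052646 to 26265382 with Tet2-E and from 14310277 to 25326826 with pMXs. Replicates differed by more than counting error, at 6.63 to 21.3 times its size (chi-square over its degrees of freedom, pairs within a group), so no pair was a repeat of 1 library. The first principal component of the 7 libraries, 40.3% of the variance, placed numbers 1 and 2 below 100 and 250 within each group: -24.8 and -28.3 against 5.82 and 5.28 for Tet2-E, and -2.23 against 17 and 27.2 for pMXs. Within each set of numbers it also placed Tet2-E below pMXs. Tet2-E has 2 libraries of each set and pMXs has 1 and 2, so the sets are not balanced between the groups. Libraries were prepared in 2 sets per the labels, which do not say whether those are the sets of numbers, nor that replicates were separate cultures. The p-values thus measure the spread between these libraries. The effect of Tet2-E was also compared between the sets. With 1 pMXs library in the set of 1 and 2, that comparison cannot show that the effects were alike. No count of genes is given for it.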

How the data were processed

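The deposited values are whole-number counts of reads on each gene, not normalized. Per the submitters' processing notes, the authors used STAR 2.6.1a, featureCounts 1.6.2 and the mm9 build; DESeq2 1.26.0 in R 3.6.2, bedtools 2.27.1 and SAMtools 1.7 are listed too. The strand setting is not given in the sources used here, so reads of a gene and of its antisense partner may be mixed. The deposited table holds 24495 genes in 13 libraries of stranded mRNA.

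The analysis ran in edgeR 4.0.16 (R 4.3.3). After filterByExpr, with minima of 10 counts and 15 in total, 14607 genes remained. TMM factors scaled the totals, and all 13 libraries went into a single robust quasi-likelihood model of group means. Adjusted p-values are Benjamini-Hochberg values over all genes tested, with a threshold of 0.05. CPM values use TMM-scaled totals, and log2 fold changes carry an approximate standard error and 95% interval. The procedure was tested on simulated data. The biological coefficient of variation was 0.102.

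Pairing came from the replicate numbers in the sample titles and was checked on residuals after group means. Over pMXs and Tet2-E, the correlation across genes was 0.153 to 0.258 for the 3 pairs with the same number, 0.118 to 0.363 for pairs of another number in the same set (1 and 2, or 100 and 250), and -0.325 to -0.0497 for pairs across the sets. Each same-numbered pair was above 0.1, so the numbers were taken to pair the libraries. Pairs of another number in the same set were above 0.1 too, so this check cannot tell pairing by number from pairing by set. Untreated libraries were no part of it, although the block over 13 libraries pairs them by number as well. Values with the block stand beside the results they change. Tet2-E replicate 1 has no pMXs partner.

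Named genes were the Tet genes, Tdg and the reprogramming factors, every gene that passed, the next 8 each way by p with at least 5 CPM and no overlap, the leading tested members of each of the 27 lists (572 genes, 497 tested), and the 6 each way with the smallest p for Tet2-WT against pMXs with a log2 change of at least 1. Genes that passed with a block, not without it in edgeR, and are no part of that rule were chosen after their values were seen. The libraries compared, the lists and the rules were chosen with earlier results of these data known. Alternatives were RLE scaling, DESeq2 1.42.0, other filters, no robust step, blocks for replicate number or set, fits of fewer libraries, 1 surrogate variable (sva 3.50.0) and leaving out each library. Promoter sequences are of another build than the counts (mm9), were joined by symbol, and matched 11089 of the genes tested.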

Additional observations from a re-analysis of the deposited data

Results flagged for a closer look

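Tet2 RNA in Tet2-E replicate 100, at 581 CPM, stood apart from the other 3 Tet2-E libraries, of which the nearest was at 1300 CPM. The gap was 0.873 of the range of the group, above the 95% critical value of Dixon's test for 4 samples. Of 59 named genes read this way, it was the only one, and chance alone marks about 1 group in 20. Without this library 50 genes passed between Tet2-E and pMXs, in place of 7.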

How the results depend on the processing

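The count of 7 genes (3 higher, 4 lower) was 7 with RLE scaling or a filter of 1 CPM in 3 libraries, 8 without the robust step and 17 (8 and 9) without a filter. Larger counts came with the replicate block, 93 (39 and 54), or 332 (123 and 209) over day 5 libraries only, and with the set block, 415 (159 and 256). They were 96 (44 and 52) with 1 surrogate variable, 141 (68 and 73) with DESeq2, in which 284 adjusted p were NA, and 25 (10 and 15) over day 5 libraries without a block. Contrasts within numbers 1 and 2, where pMXs has 1 library that is assumed to vary like the others, gave 116 (59 and 57), and within 100 and 250 gave 92 (31 and 61). Only pMXs and Tet2-E libraries gave 0 (0 and 0). Leaving out 1 library gave 1 to 50 in all, 1 to 29 higher and 0 to 21 lower; the cause was not tested. The count for Tet2-E against Tet2-WT was 675, and 639 to 965 under its alternatives, with 965 under the replicate block.

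Without change of sign under any alternative run were all genes that passed, from Tet2 to Chst3. Signs turned for genes that had not passed without the block, and none passed where its sign turned; without the block these stood at up to 0.09 from no difference except Gap43 (-0.46), Tet1 (-0.32) and Brdt (-0.25). With the replicate block, Klf4 was -0.0094, Myc -0.038, Sox2 -0.029 and Tdg 0.0066, and over day 5 libraries with it -0.026, -0.031, -0.029 and 0.033. Within numbers 1 and 2, Klf4 was -0.11, Myc -0.17, Sox2 -0.14, Pou5f1 -0.057, Brdt (a germline gene) 0.11 and Gap43 (a neuronal gene) 0.17, and within 100 and 250 Tdg was 0.11. Myc was -0.0069 with 1 surrogate variable. Leaving out 1 library gave -0.044 to 0.099 for Klf4, -0.057 to 0.115 for Myc, -0.026 to 0.128 for Sox2, -0.291 to 0.092 for Tdg and -0.535 to 0.041 for Tet1. Depth limits the genes of few counts, such as Tdg and Enpp1.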

Other observations

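Some genes outside the lists passed with the replicate block and not in edgeR without it, and are given here as values, chosen after they were seen. DESeq2 without a block passed Aldh3a1, Muc2 and Gas1 of these (adjusted p = 0.0033, 0.000123 and 0.028). Aldh3a1, an aldehyde dehydrogenase, was at 268, 220 and 198 CPM in pMXs replicates 2, 100 and 250 and at 408, 383, 298 and 305 CPM in Tet2-E replicates 1, 2, 100 and 250. The groups did not overlap, and with the block it rose by 0.53 on the log2 scale (adjusted p = 0.00494, against 0.0942 without). Muc2, a gel-forming mucin, was low in every library, at 0.634, 0.421 and 0.479 CPM and at 4.04, 2.98, 1.12 and 2.47 CPM, and rose by 2.08 with the block (adjusted p = 0.0131, against 0.0606 without).

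Cdh11, a cadherin of mesenchymal cells, was at 262, 351 and 381 CPM with pMXs and at 159, 197, 251 and 248 CPM with Tet2-E, and fell by 0.51 with the block (adjusted p = 0.00586, against 0.368 without). Gas1, a membrane protein that binds hedgehog ligands, was at 35.4, 54.9 and 64.6 CPM and at 23.0, 25.1, 36.4 and 35.8 CPM, and fell by 0.69 (adjusted p = 0.00494, against 0.246). Bmp4, a growth factor, was at 26.8, 37.5 and 40.5 CPM and at 16.2, 20.8, 28.2 and 24.7 CPM, and fell by 0.53 (adjusted p = 0.0284, against 0.267). Cdh11 did not overlap between the groups. In Gas1 and Bmp4 pMXs replicate 2 lay below at least 1 Tet2-E library of numbers 100 and 250, and all 3 were lower with Tet2-E within each set of numbers.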
